A study of Homo sapiens with 2 samples.

Results

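The aldo-keto reductases are enzymes that use NADPH to reduce carbonyl groups, and 7 of their genes, AKR1A1, AKR1B1, AKR1B10, AKR1C1, AKR1C2, AKR1C3 and AKR7A2, were taken from the 20323 genes of the table by symbol. These genes were chosen by family name with the counts and log2 ratios of the same pair of libraries in view, so the ratios are described here and nothing is tested with them. RNA came from MDA-MB-231 cells, an established line from a triple-negative breast cancer, transfected with a small interfering RNA (siRNA) against HNRNPF (si-HnRNPF) or with a negative-control siRNA (si-NC), and polyadenylated RNA was sequenced from 1 library per group. HNRNPF encodes an RNA-binding protein of G-rich sequences, and the comparison addressed which transcripts differ in level when it is depleted. With 1 library per group no difference has a replicate check, no test was possible, and the intervals given are exact 95% intervals that cover counting error only. The columns of one library carry the control's name and those of the other the name si848, which was taken as si-HnRNPF from the name of the deposited table. Neither a time after transfection nor a second siRNA is named in the labels, and fewer transcripts per cell cannot be told apart from fewer cells carrying them.

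Aldo-keto reductases turn aldehydes and ketones into alcohols. AKR1A1 (aldehyde reductase) and AKR1B1 (aldose reductase, the first enzyme of the polyol pathway from glucose to sorbitol) are expressed in many tissues, AKR1B10 reduces retinal and lipid aldehydes, and AKR7A2 reduces succinic semialdehyde and aflatoxin dialdehyde. The AKR1C enzymes act on steroids and prostaglandins: AKR1C1 inactivates progesterone, AKR1C2 inactivates dihydrotestosterone, and AKR1C3 makes testosterone and prostaglandin F. In human cells AKR1C and AKR1B10 genes are known to be switched on by NRF2, a transcription factor that answers oxidative and electrophile stress and that KEAP1 holds in check.

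AKR1C1, AKR1C2 and AKR1C3 lie side by side on chromosome 10 and have nearly the same coding sequence, which bears on how reads could be assigned to them. AKR1C1 spans chr10:4963253-4983283 on the plus strand, AKR1C2 chr10:4987400-5018031 on the minus strand and AKR1C3 chr10:5035354-5107686 on the plus strand (GRCh38, GENCODE release 29). The first 120 coding bases of each show how close they are, with every base that differs from AKR1C1 in capitals. AKR1C2 differed from AKR1C1 at 4 of these positions and AKR1C3 at 16.
AKR1C1: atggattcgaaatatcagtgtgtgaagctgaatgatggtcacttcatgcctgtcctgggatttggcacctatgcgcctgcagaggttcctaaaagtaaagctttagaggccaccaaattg
AKR1C2: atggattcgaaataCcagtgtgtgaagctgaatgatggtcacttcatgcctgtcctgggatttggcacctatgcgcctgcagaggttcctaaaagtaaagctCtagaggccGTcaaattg
AKR1C3: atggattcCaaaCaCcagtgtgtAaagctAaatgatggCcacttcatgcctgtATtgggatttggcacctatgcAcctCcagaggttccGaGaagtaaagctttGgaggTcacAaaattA

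Over the whole coding sequence of 972 bases, AKR1C1 and AKR1C2 differed at 19 positions and were 98.0% identical, while AKR1C3 was 91.5% identical to AKR1C1 and 91.0% to AKR1C2. No other pair of members came close: AKR1B1 and AKR1B10, neighbours on chromosome 7, were 76.2% identical, and AKR7A2 was between 46.8% and 48.2% identical to each of the 6 AKR1 members. Cut into words of 50 bases, 50.8% of the AKR1C2 transcript also occurred in annotated AKR1C1 transcripts and 28.3% of the longer AKR1C1 transcript in AKR1C2, with one unbroken identical run of 437 bases. For AKR1C3, 9.61% of words occurred in AKR1C2 and 7.68% in AKR1C1. Counting words found in any other gene, AKR1C2 shared 52.2%, AKR1C1 28.7%, AKR1B10 17.7% and AKR1C3 12.1%, and the remaining members shared fewer, with 105 of 1313 AKR7A2 words, 65 of 1360 AKR1B1 words and 0 of 1769 AKR1A1 words. At a word length of 100 bases the shares with any other gene were 32.9% for AKR1C2, 17.4% for AKR1C1, 4.98% for AKR1C3 and 2.01% for AKR1B10. The labels do not state the length of the reads.

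**Figure D1:**
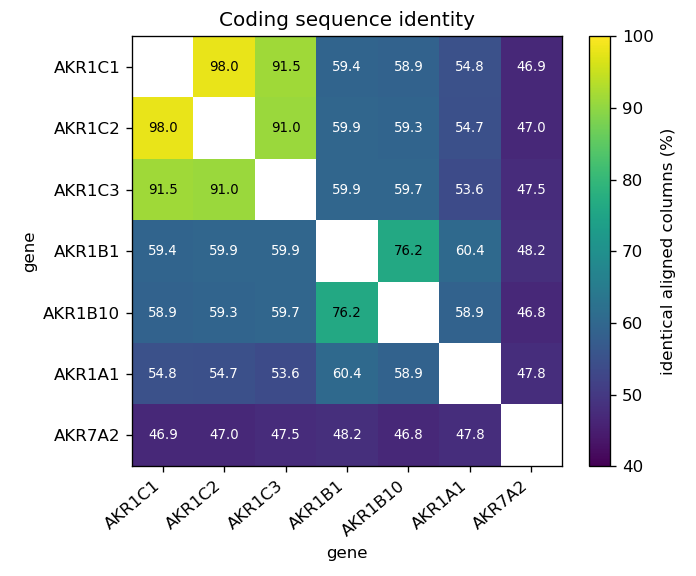
Identity of the coding sequences of the 7 members, as the percentage of identical columns in a global alignment of each pair (rows and columns are genes, colour and printed value are the percentage). The AKR1C genes form a block at 91.0 to 98.0%, AKR1B1 and AKR1B10 pair at 76.2%, and AKR7A2 stays under 50% with every other member.

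Of the members, the 3 AKR1C genes alone had deposited counts that are not whole. AKR1C1 had 68 counts in si-HnRNPF and 132.83 in si-NC, AKR1C2 had 24 and 42.47, and AKR1C3 had 140 and 201.7. The counts of these 3 genes were therefore not whole in the si-NC library and whole in the si-HnRNPF library. The other 4 members had whole counts in both. Among them, AKR1B10 shared more words than AKR1C3 at 50 bases and fewer at 100 bases, and had 4 counts in si-HnRNPF and 10 in si-NC. Whether shared sequence gave the fractions was not tested. Counts that are not whole arise when reads are divided among genes or transcripts, as RSEM, a tool the processing notes name, can do, and 19.1% of expressed genes had one in at least 1 library. The si-NC counts of the 3 AKR1C genes added up to a whole number, 377, so in total the division among them left no fraction over. Their sum, 232 counts in si-HnRNPF and 377 in si-NC, does not depend on how reads were split among the 3, which the single values do.

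The most abundant member per length was AKR1B1, at 71.69 FPKM (fragments per kilobase of transcript and per 1e6 fragments, the authors' values) in si-HnRNPF and 67.45 FPKM in si-NC. AKR7A2 had 27.37 FPKM in si-HnRNPF and 25.83 FPKM in si-NC. AKR1A1 had 26.3 FPKM in si-HnRNPF and 25.9 FPKM in si-NC. AKR7A2 and AKR1A1 lay close together in both libraries. The AKR1C genes lay well under them, with AKR1C3 at 6.2 FPKM in si-HnRNPF and 8.77 FPKM in si-NC. AKR1C1 stood at 2.4 FPKM in si-HnRNPF and 4.13 FPKM in si-NC, and AKR1C2 at 1.23 FPKM in si-HnRNPF and 1.93 FPKM in si-NC. AKR1B10 was the lowest, at 0.12 FPKM in si-HnRNPF and 0.3 FPKM in si-NC. AKR7A2 was above AKR1A1 in si-HnRNPF and below it in si-NC. The order AKR1B1, then AKR7A2 and AKR1A1, then AKR1C3, AKR1C1, AKR1C2 and AKR1B10 held in both libraries. AKR1B1 took 53.0% of the members' summed FPKM in si-HnRNPF and 50.2% in si-NC.

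**Figure D2:**
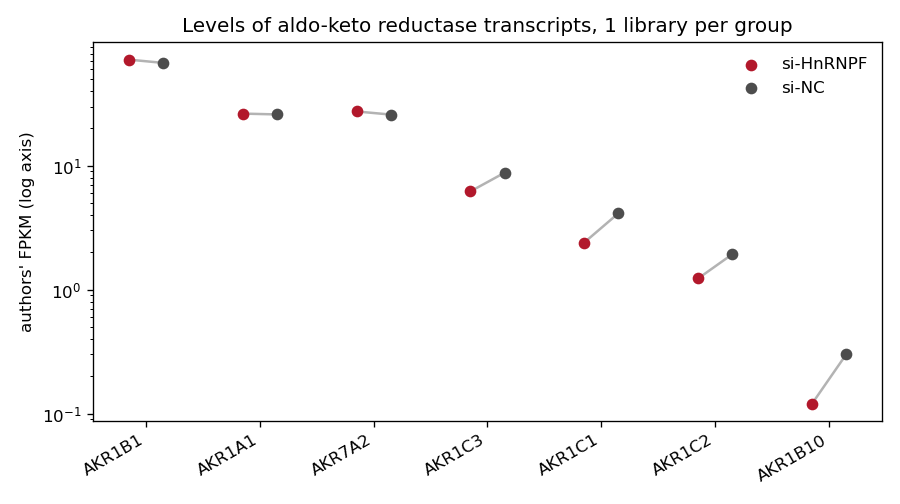
Level of each member in the si-HnRNPF library (red, left of each pair) and the si-NC library (grey, right), as the authors' FPKM on a log axis; each point is 1 library. AKR1B1, AKR1A1 and AKR7A2 are level between the libraries, and the 3 AKR1C genes and AKR1B10 are lower in si-HnRNPF.

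The 3 AKR1C genes were lower in si-HnRNPF. AKR1C1, which inactivates progesterone, had 3.35 CPM (counts per 1e6 of the effective library size) in si-HnRNPF and 6.49 CPM in si-NC, a log2 ratio of -0.94 (95% interval -1.40 to -0.52), or 1.91-fold lower. AKR1C2 had 1.18 CPM in si-HnRNPF and 2.07 CPM in si-NC, a log2 ratio of -0.75 (95% interval -1.58 to -0.04), or 1.68-fold lower, from so few counts that its interval runs almost to 0. AKR1C3, which makes testosterone and prostaglandin F, had 6.89 CPM in si-HnRNPF and 9.85 CPM in si-NC, a log2 ratio of -0.51 (95% interval -0.84 to -0.20), or 1.43-fold lower. Among 12218 expressed genes (in the library where the gene is higher, at least 1 CPM and 20 counts), ordered from the lowest ratio up, AKR1C1 stood at place 93, AKR1C2 at 168 and AKR1C3 at 452.

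Summed, the AKR1C genes had 11.4 CPM in si-HnRNPF and 18.4 CPM in si-NC, which was 62.0% of the control level (log2 ratio -0.68, 95% interval -0.93 to -0.45). AKR1C1 and AKR1C2 together, the pair that shares most sequence, had 92 counts in si-HnRNPF and 175.3 in si-NC, a log2 ratio of -0.90 (95% interval -1.30 to -0.54). That interval overlapped the one of AKR1C3, but overlap does not test a difference, and none between the pair and AKR1C3 was tested. The composition of the sum gave the same picture: AKR1C3 made up 60.3% of it in si-HnRNPF (exact binomial 95% interval 53.7 to 66.7%) and 53.6% in si-NC (48.4 to 58.7%). AKR1C1 made up 29.3% in si-HnRNPF (23.5 to 35.6%) and 35.3% in si-NC (30.5 to 40.3%).

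The broadly expressed members did not stand apart between the libraries. AKR1B1, aldose reductase, had 1982 counts in si-HnRNPF and 1913 in si-NC, a log2 ratio of 0.06 (95% interval -0.03 to 0.15). AKR1A1 had 626 counts in si-HnRNPF and 646 in si-NC, a log2 ratio of -0.03 (95% interval -0.20 to 0.13). AKR7A2 had 740 counts in si-HnRNPF and 721 in si-NC, a log2 ratio of 0.05 (95% interval -0.10 to 0.20). Each of these intervals held 0, and none reached a change of 1.5-fold in either direction. Added together the 3 genes had 3348 counts in si-HnRNPF and 3280 in si-NC (log2 ratio 0.04, 95% interval -0.03 to 0.11), and all 7 members had 3584 counts in si-HnRNPF and 3667 in si-NC (log2 ratio -0.02, 95% interval -0.09 to 0.04).

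AKR1B10, the retinal reductase on chromosome 7, had 4 counts in si-HnRNPF and 10 in si-NC and did not reach the expression minimum. Its log2 ratio was -0.99 with a 95% interval from -3.44 to 0.48, so neither a decrease nor an increase could be read from it at this depth.

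**Figure D3:**
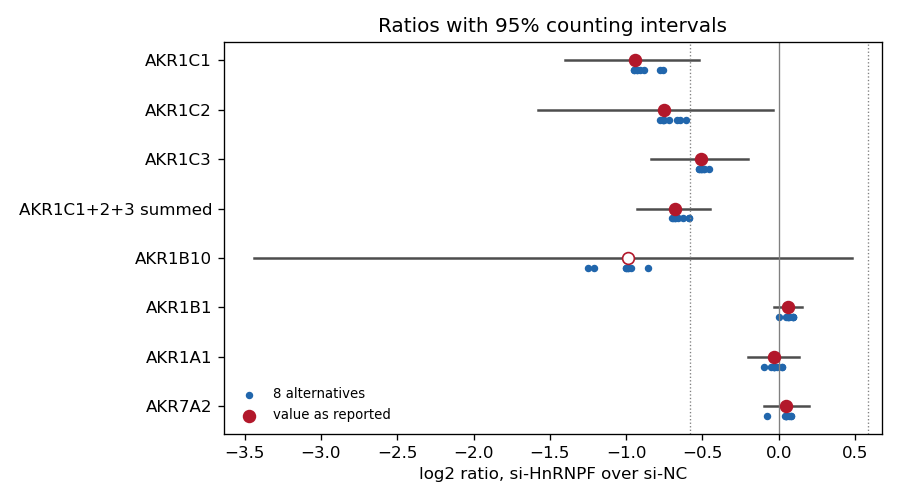
Log2 ratio of each member and of the summed AKR1C counts, si-HnRNPF over si-NC, with exact 95% counting intervals (lines), the ratio as reported (red; open for AKR1B10, which is below the expression minimum) and the values under 8 other ways of computing it (blue); dotted lines mark 1.5-fold. The AKR1C intervals lie below 0 and those of AKR1B1, AKR1A1 and AKR7A2 span 0.

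Of the 7 members 6 passed the expression minimum, and AKR1C1 and AKR1C2 of them were at least 1.5-fold lower, while none was at least 1.5-fold higher. Among all 12218 expressed genes 2.68% were at least 1.5-fold lower and 3.40% at least 1.5-fold higher. The counting interval lay below 0 for AKR1C1, AKR1C2 and AKR1C3, and did so for 24.5% of all expressed genes. The median log2 ratio was -0.27 over the 6 members and 0.00 over all expressed genes, and since the members were picked with these ratios known, nothing is read from the difference. AKR1C3 lay just short of 1.5-fold. Ratios scatter more at low counts: of 2058 genes whose higher library had between 40 and 210 counts, a range set after the AKR1C counts were seen, 4.76% were at least 1.5-fold lower and 9.28% at least 1.5-fold higher.

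The size of the AKR1C1 and AKR1C2 differences depended on the unit. On the log2 scale the authors' deposited table gave a fold change of -0.78 for AKR1C1, -0.65 for AKR1C2 and -0.50 for AKR1C3. In the authors' deposited table the values for AKR1B1, AKR7A2 and AKR1A1 were 0.09, 0.08 and 0.02. FPKM divide counts by a transcript length, and dividing the counts by the FPKM gives back the length that was used. For AKR1C1 this length was 1.41 kb in si-HnRNPF and 1.56 kb in si-NC, a log2 ratio of lengths of -0.15. For AKR1C2 it was 0.969 kb in si-HnRNPF and 1.07 kb in si-NC, a log2 ratio of lengths of -0.14. For AKR1C3 it was 1.12 kb in si-HnRNPF and 1.11 kb in si-NC. Over 11135 expressed genes at 1 FPKM or more in both libraries the log2 ratio of these lengths had a median of 0.00, and ran from -0.17 at the 5th to 0.16 at the 95th percentile, so AKR1C1 and AKR1C2 were near the lower edge of that range.

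The annotated AKR1C transcripts differ in their 3' untranslated region (UTR) far more than in the coding part. The principal AKR1C1 transcript has a 3' UTR of 5541 bases and that of AKR1C2 one of 2596, against 183 bases for AKR1C3, 378 for AKR1B1, 319 for AKR1B10, 260 for AKR7A2 and 93 for AKR1A1. The heptamer GGAAGAA, which earlier work on these libraries had found to be frequent in the 3' UTRs of lower genes, occurred in the 3' UTRs of AKR1C1 (2 copies) and AKR1C2 (1 copy) and not in the principal 3' UTR of any other member. A copy was also found in the 5' UTR of each of these 2 genes. The sites are printed with 10 bases on either side and the heptamer in capitals, to show that the copies nearest the stop codon are the same in both genes.
AKR1C1, 3' UTR, chr10:4978165-4978191, plus strand: agctcttgtaGGAAGAAgcacacgcag
AKR1C2, 3' UTR, chr10:4989548-4989574, minus strand: agctcttgtaGGAAGAAgcacacgcag
AKR1C1, 3' UTR, chr10:4982796-4982822, plus strand: agcacctcaaGGAAGAAtaaatagaac
AKR1C1, 5' UTR, chr10:4963396-4963422, plus strand: ctgtgagggaGGAAGAAagaaacattt
AKR1C2, 5' UTR, chr10:5003854-5003880, minus strand: ctgtgagggaGGAAGAAacatttgcta

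The shared site starts 433 bases after the stop codon in AKR1C1 and 432 bases after it in AKR1C2, and all 27 bases shown are identical. The other AKR1C1 site lies 5064 bases after the stop codon, in the far part of a 6705-base transcript. The length behind the authors' FPKM was 1.41 to 1.56 kb for AKR1C1 and 0.969 to 1.07 kb for AKR1C2. The shared site starts at base 1597 of the principal AKR1C1 transcript and at base 1592 of that of AKR1C2. The length behind the FPKM is 1 value per gene and library, not the end of a transcript. AKR1C1 has 5 annotated transcripts of 713 to 6705 bases and AKR1C2 has 10 of 460 to 3756 bases. Whether the transcripts present held either site cannot be read from such a length. Of annotated transcripts with a 3' UTR, 1 of 2 of AKR1C1 and 2 of 3 of AKR1C2 carried the heptamer there. One of 4 annotated AKR1A1 transcripts with a 3' UTR also carried the heptamer, but not its principal transcript. Carrying the heptamer goes with length: of expressed genes with an annotated 3' UTR 20.1% carried it, 45.6% of those with a 3' UTR of 2500 bases or longer and 2.79% of those with one shorter than 400 bases. A match describes the sequence, and whether it has a part in the AKR1C ratios was not tested. Since the heptamer had been found in lower genes of these same libraries, its presence in lower members is no independent evidence.

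The start regions of AKR1C1 and AKR1C2 were also alike, and those of AKR1C3 less so. RefSeq windows of 250 bases before to 50 bases after the start (GRCh38.p14) were found for 6 of the 7 members. Those of AKR1C1 and AKR1C2 were 93.5% identical. The AKR1C3 windows were 73.5% and 71.0% identical to that of AKR1C1, and 69.4% and 70.1% to that of AKR1C2. The windows were searched on both strands for TGACNNNGC, the core of the antioxidant response element that NRF2 binds. The AKR7A2 window held it 3 times, 2 of them forward and 1 reverse, and the windows of AKR1A1, AKR1B1, AKR1C1, AKR1C2 and AKR1C3 did not hold these letters. Sequence farther from the start was not searched, so a gene without a match here may hold the element elsewhere. Whether NRF2 acts through any match was not tested. Of 27305 genes with a window 16.1% held it. The AKR1C1 window is printed as a member that was lower and the AKR7A2 window as a member that was not, with matches in capitals.
AKR1C1, chr10:4963165-4963464, plus strand: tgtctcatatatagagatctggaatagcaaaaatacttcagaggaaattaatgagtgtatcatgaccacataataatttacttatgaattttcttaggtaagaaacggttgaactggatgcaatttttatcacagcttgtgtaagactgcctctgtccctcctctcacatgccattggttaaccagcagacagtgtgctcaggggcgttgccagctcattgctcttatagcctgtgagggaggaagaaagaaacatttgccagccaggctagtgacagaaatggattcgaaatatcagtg
AKR7A2, chr1:19312097-19312396, minus strand: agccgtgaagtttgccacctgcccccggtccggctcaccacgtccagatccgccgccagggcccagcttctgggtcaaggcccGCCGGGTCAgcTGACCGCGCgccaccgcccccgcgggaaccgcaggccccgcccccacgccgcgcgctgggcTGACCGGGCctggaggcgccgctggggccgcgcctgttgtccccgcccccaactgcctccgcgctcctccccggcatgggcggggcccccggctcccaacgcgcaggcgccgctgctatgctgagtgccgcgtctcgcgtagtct

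Genes next to the members gave a further comparison. The AKR1C cluster is far from other expressed genes, with KLF6 1177972 bases away on the side of AKR1C1 and NET1 304865 bases away on the side of AKR1C3. KLF6 had 3626 counts in si-HnRNPF and 3595 in si-NC, a log2 ratio of 0.02 (95% interval -0.04 to 0.09). NET1 had 4537 counts in si-HnRNPF and 5437 in si-NC, a log2 ratio of -0.25 (95% interval -0.31 to -0.19). SLC66A1, which starts next to AKR7A2 on the opposite strand, stood at 0.04 (95% interval -0.27 to 0.36), and MRTO4, on its other side, one of 0.05 (95% interval -0.06 to 0.17). SLC35B4, next to AKR1B1, stood at 0.06 (95% interval -0.04 to 0.16), and BPGM, the nearest expressed gene beyond AKR1B10, at -0.24 (95% interval -0.47 to -0.01). The neighbours of AKR1A1 were PRDX1 at -0.09 and NASP at -0.06.

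The wider superfamily has 17 human genes in the list used, and 9 of them were expressed. The voltage-gated potassium channel beta subunit KCNAB2, which belongs to it, had 1103 counts in si-HnRNPF and 1093 in si-NC (log2 ratio 0.02, 95% interval -0.10 to 0.15). KCNAB3 had 29 counts in si-HnRNPF and 34 in si-NC (log2 ratio -0.21, 95% interval -0.99 to 0.54). KCNAB1 had 21 counts in si-HnRNPF and 12 in si-NC (log2 ratio 0.73, 95% interval -0.27 to 1.98). AKR1B15, AKR1C4 and the bile acid enzyme AKR1D1 had 0 counts in both libraries, AKR1E2 had 0 in si-HnRNPF and 1 in si-NC, and AKR1C8, AKR7A3 and AKR7L stayed under the minimum with at most 12 counts.

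Other targets of NRF2 were mostly lower. Of 30 expressed targets, the AKR genes left out, 21 lay below 0 and 9 above it, and their median was -0.15 against 0.00 over all expressed genes. The counting interval lay below 0 for 15 of the 30 and above 0 for 4, against 24.5% of all expressed genes below 0 and 21.5% above. At least 1.5-fold lower was 1 of the 30, close to the 2.68% of all expressed genes, and this was GSTM3, a glutathione S-transferase, with 493 counts in si-HnRNPF and 795 in si-NC (log2 ratio -0.68, 95% interval -0.84 to -0.51). GCLM, the modifier subunit of glutathione synthesis, stood at -0.47 (95% interval -0.54 to -0.40), and HMOX1, heme oxygenase, at -0.42 (95% interval -0.74 to -0.11). NQO1, a quinone reductase often used as a readout of NRF2, had 11937 counts in si-HnRNPF and 13442 in si-NC, a log2 ratio of -0.16 (95% interval -0.20 to -0.12). Earlier work on these libraries had already found targets of NRF2 lower as a list, so these counts are no independent evidence.

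The regulators of NRF2 differed little. NFE2L2, which encodes NRF2 itself, had 3248 counts in si-HnRNPF and 3574 in si-NC, a log2 ratio of -0.13 (95% interval -0.20 to -0.06). KEAP1 had 1510 counts in si-HnRNPF and 1388 in si-NC, a log2 ratio of 0.13 (95% interval 0.03 to 0.24). MAFG, a small MAF protein that pairs with NRF2, had the largest difference of the 11 regulators, with 1365 counts in si-HnRNPF and 1811 in si-NC (log2 ratio -0.40, 95% interval -0.50 to -0.29), followed by the autophagy receptor SQSTM1 at -0.22. No regulator reached 1.5-fold.

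Among other enzymes of carbonyls and alcohols the median lay slightly above 0. Over all 12218 expressed genes the median was 0.00, with 6127 genes higher and 6091 lower. Of these genes 2.68% were at least 1.5-fold lower and 3.40% at least 1.5-fold higher. Of 12 expressed short-chain carbonyl reductases, the other main family that reduces carbonyls with NADPH, 8 were higher and 4 lower (median log2 ratio 0.13), and none passed 1.5-fold. DHRS1 (0.35), PECR (0.30) and DHRS11 (0.28) had the largest log2 ratios. Of 13 aldehyde dehydrogenases, which oxidise the aldehydes that reductases reduce, 8 were higher and 5 lower (median 0.10). ALDH3A2, the fatty aldehyde dehydrogenase, differed most, with 1966 counts in si-HnRNPF and 2825 in si-NC (log2 ratio -0.51, 95% interval -0.60 to -0.43), followed at 5 CPM and 50 counts by ALDH1A3 and ALDH3B1, each at -0.25 with an interval that held 0. SORD, which takes up the sorbitol made by AKR1B1, had a ratio of 0.17 (95% interval 0.10 to 0.24), KHK, the fructokinase after it, one of 0.20 (95% interval -0.10 to 0.51), and ADH5 one of -0.02.

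Of 14 expressed steroid and retinoid enzymes 10 were lower and 4 higher (median log2 ratio -0.12), against 6091 lower and 6127 higher of all 12218 expressed genes. The counting interval lay below 0 for 6 and above 0 for none, against 24.5% and 21.5% of all expressed genes. HSD17B7, which acts on estrogens and in cholesterol synthesis, was the single one at least 1.5-fold lower, against 2.68% of all expressed genes. It had 241 counts in si-HnRNPF and 370 in si-NC (log2 ratio -0.60, 95% interval -0.85 to -0.37). The retinal reductase RDH11 stood at -0.28 (95% interval -0.37 to -0.19) and SRD5A3, a reductase of polyprenol, at 0.25 (95% interval 0.00 to 0.50).

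**Figure D4:**
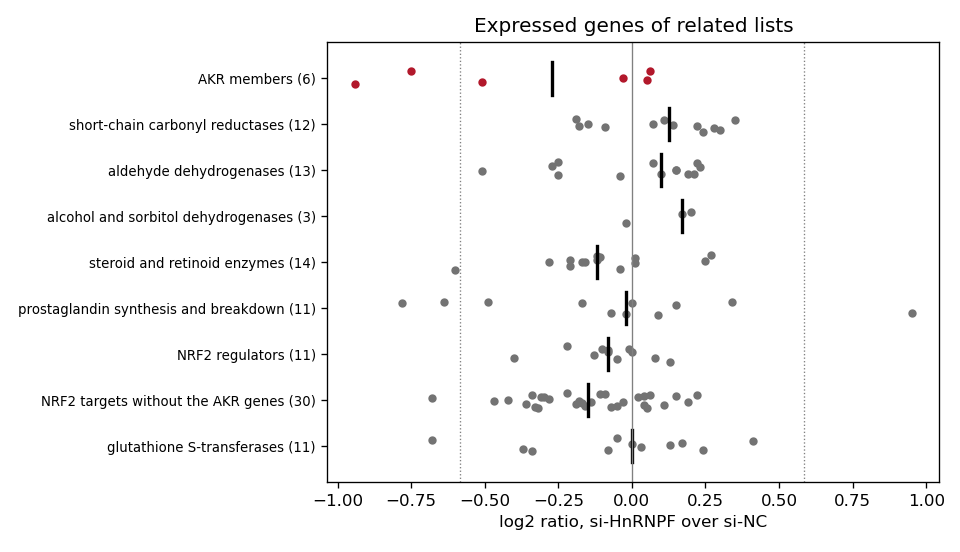
Log2 ratio, si-HnRNPF over si-NC, of each expressed gene (points) in the members' list (red) and 8 lists of related enzymes and regulators (grey), with the number of genes in brackets, the median (black bar) and 1.5-fold (dotted lines). The AKR1C genes lie to the left, and the medians of the other lists lie between -0.15 and 0.17.

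The libraries themselves held 20134572 estimated counts in si-HnRNPF and 20654622 in si-NC. HNRNPF, the targeted gene, had 2451 counts in si-HnRNPF and 6373 in si-NC, 38.8% of the control level. Markers of the line were present: VIM had 63656 counts in si-HnRNPF and 66622 in si-NC, and KRT18 had 7965 and 8095. CDH1 had 0 counts in si-HnRNPF and 3 in si-NC, and ESR1 and PGR had at most 8. Also listed as low in this line, EPCAM had 47 counts in si-HnRNPF and 34 in si-NC, and ERBB2 had 1236 in si-HnRNPF and 1160 in si-NC, so ERBB2 was not low. Since AKR1C genes are abundant in liver, hepatocyte markers were checked: ALB and CYP3A4 had 1 count each in si-HnRNPF and 0 in si-NC, APOA1 and TTR had 0 in both, and SERPINA1 had 68 in si-HnRNPF and 98 in si-NC.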

How the data were processed

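Polyadenylated RNA of MDA-MB-231 cells was sequenced in 1 library per group, per the labels' protocols. Per the submitters' processing notes, the tools were RSEM, StringTie 1.3.1, HISAT2 and fastp 0.18.0, with no role given, and the build was GRCh38. The authors deposited estimated counts that are not scaled between libraries and are not whole in 12.0% (si-HnRNPF) and 11.6% (si-NC) of genes, FPKM per library, means that repeat the FPKM, a log2 fold change of these, and p-values that were not used here. The p-value columns deposited by the authors come from a test not given in the sources used here.

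Counts were rounded. Effective library sizes from edgeR 4.0.16 (TMM, in R 4.3.3) were 20314875 for si-HnRNPF and 20471293 for si-NC. Log2 ratios of CPM used a prior count of 2, and intervals are exact Clopper-Pearson (scipy 1.17.1) scaled by library size. Genes at 1 CPM and 20 counts in the higher library were called expressed. The ratio was checked on simulated data. Transcripts came from GENCODE release 29, alignments from biopython 1.88, and promoters from RefSeq. The principal transcript was the best APPRIS one with the longest 3' UTR. Members and lists were chosen with earlier results of these data known. Genes named beyond the members were the other superfamily genes, HNRNPF, NFE2L2, KEAP1, NQO1, the 3 genes of each list with the largest absolute log2 ratio at 5 CPM and 50 counts, and the nearest expressed neighbours; the cell type markers and, in the closing section, HPGD, PTGER2 and TBXAS1 were named after their values were seen. Alternatives were other library sizes (DESeq2 1.42.0 size factors among them), prior counts, unrounded counts, FPKM, a trend of GC content and length, minima and thresholds.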

Additional observations from a re-analysis of the deposited data

How the results depend on the processing

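The log2 ratio of AKR1C1 lay between -0.95 and -0.76, that of AKR1C2 between -0.78 and -0.61, that of AKR1C3 between -0.52 and -0.46 and that of the AKR1C sum between -0.70 and -0.59 over 8 alternatives, each within its counting interval. AKR1A1 lay between -0.10 and 0.02 and AKR7A2 between -0.08 and 0.08, so their signs depended on the setting. The count of members at least 1.5-fold lower was 2 of 6. It was 3 of 7 with no minimum and 3 of 6 with a lower threshold of 0.32 on the log2 scale. With a minimum of 5 CPM and 50 counts it was 1 of 5, and at 2-fold 0 of 6. Without genes whose count is not whole it was 0 of 3, since that setting leaves out the 3 AKR1C genes. For NRF2 targets the count of 1 became 6 at that lower threshold and 0 at 2-fold. Among all 15268 genes with no minimum, 860 were at least 1.5-fold lower and 1481 higher. At 5 CPM and 50 counts these were 192 and 155 of 10654 genes. Without genes whose count is not whole they were 248 and 306 of 9887. Of the 12218 expressed genes, 1131 were lower and 1325 higher at that lower threshold, and 72 and 108 at 2-fold. No paired analysis was possible because each group has 1 library. Depth limits AKR1C2 and AKR1B10 most.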

Other observations

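Genes of prostaglandin synthesis and breakdown, a list that also holds receptor genes, were split. Of 11 expressed genes 7 were lower and 4 higher (median log2 ratio -0.02), against 6091 lower and 6127 higher of all 12218 expressed genes. At least 1.5-fold lower were 2 of the 11 and at least 1.5-fold higher 1, against 2.68% and 3.40% of all expressed genes. PLA2G4A, the phospholipase that frees arachidonic acid, had 243 counts in si-HnRNPF and 345 in si-NC (log2 ratio -0.49, 95% interval -0.74 to -0.25), and the prostaglandin receptor gene PTGER4 had 226 in si-HnRNPF and 179 in si-NC (0.34, 95% interval 0.06 to 0.64). PTGES3 had a log2 ratio of -0.17. At lower levels HPGD, which breaks prostaglandins down, stood at -0.78 (95% interval -1.39 to -0.24), the receptor gene PTGER2 at -0.64 (95% interval -1.45 to 0.06) and the thromboxane synthase gene TBXAS1 at 0.95 (95% interval -0.07 to 2.33).

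Of 11 expressed glutathione S-transferases 6 were higher and 5 lower (median log2 ratio 0.00), against 6127 higher and 6091 lower of all 12218 expressed genes. Beside GSTM3, GSTA4 stood at 0.41 (95% interval 0.16 to 0.67) and GSTK1 at -0.37 (95% interval -0.52 to -0.22).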
